A study of Homo sapiens with 3 samples.

Results

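The 44 genes described here encode proteins that copy DNA or divide the duplicated chromosomes, and they were taken as the rows of the count table that carry 44 listed UniProt protein accessions. Of these accessions, 43 have a row among the 213543 features of the table, and FEN1 (P39748) was not analysed here. The genes were treated as 20 S-phase genes, 22 mitotic genes and the 2 transcription factors FOXM1 and MYBL2. The libraries for RNA-seq came from THP-1 cells, a human monocytic leukemia line with an MLL-AF9 fusion. One library came from untreated cells (0 h) and one from cells treated for 8 h with 0.2 µM GSK-LSD1, an inhibitor of the histone demethylase LSD1. Another came from cells treated with GSK-LSD1 for 24 h. Its dose was taken to be the same, since the methods of the study state 0.2 µM for the 8 h treatment. LSD1 inhibition was used in the study to start myeloid differentiation, and the comparisons below ask how the genes of the cell division cycle were expressed over the first day of it. Ribosomal RNA was removed from the total RNA used for each library. Each time point has 1 library, so no difference below has a replicate check and no p-value was computed.

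The deposited values are whole-number read counts per feature, with totals of 1475938 before treatment, 1310912 at 8 h and 1444011 at 24 h. Counts were scaled to library size with the TMM method and are given as CPM, the count per megaread of the scaled library size. Values stated with total counts were scaled by the unadjusted library totals instead. Intervals are exact 95% intervals of the ratio of 2 counts, and they reflect counting error alone. No molecular identifiers are named in the methods, so reads need not be independent molecules. A count of 0 allows up to 3 counts, which is 1.95 CPM before treatment, 2.34 at 8 h and 2.11 at 24 h. Of 8 genes chosen as myeloid markers, 4 reached 10 counts in a library. At 0 h, 8 h and 24 h, LYZ (P61626) had 655, 747 and 1773 counts, SPI1 had 69, 87 and 102, and MPO had only 17, 18 and 18. PTPRC (P08575), which is expressed across leukocytes, had 617, 522 and 521. None of the 6 markers of other lineages, such as CD3E, ALB and HBB, had a count in these libraries. CD33 (P20138), which marks the myeloid lineage, was also at 0 in all 3 libraries, so a 0 under one accession does not show that a gene was silent. The 8 h library stood apart in the mitochondrial ribosomal RNAs, with 1661, 9 and 743 counts of MT-RNR2 and 712, 3 and 271 of MT-RNR1 in the libraries of 0 h, 8 h and 24 h, which together are 0.161%, 0.000915% and 0.0702% of all counts.

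Before S phase, the hexameric MCM2-7 helicase is loaded at replication origins with the help of CDC6 and CDT1. PCNA, the sliding clamp, then holds the DNA polymerases at the fork, and ribonucleotide reductase (RRM1 and RRM2), TYMS and TK1 supply the nucleotides. In mitosis, CDK1 bound to B-type cyclins drives entry, the Aurora and Polo kinases and motors such as KIF11 build the spindle, and CDC20 activates the anaphase-promoting complex. Transcripts of the first set peak around the G1/S transition and those of the second in G2 and M.

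The promoters of these genes carry recurring motifs, and 6 are shown as examples, 3 of each class, because the motifs they hold differ between the classes. RefSeq promoter windows of 300 bases (250 before the start of transcription and 50 after, GRCh38.p14) were found for 37 of the 44 genes by symbol. Motifs were searched on both strands. The E2F site, bound by the E2F factors, was searched as TTTGGCGC, TTTCCCGC, TTTCGCGC and TTTGCCGC. The cell cycle homology region (CHR), bound by the MuvB complexes that contain B-MYB or FOXM1, was searched as TTTGAA and TTCGAA. The CCAAT box is bound by NF-Y. Capitals mark the matches, read 5′ to 3′ along the strand of the gene.
MCM6: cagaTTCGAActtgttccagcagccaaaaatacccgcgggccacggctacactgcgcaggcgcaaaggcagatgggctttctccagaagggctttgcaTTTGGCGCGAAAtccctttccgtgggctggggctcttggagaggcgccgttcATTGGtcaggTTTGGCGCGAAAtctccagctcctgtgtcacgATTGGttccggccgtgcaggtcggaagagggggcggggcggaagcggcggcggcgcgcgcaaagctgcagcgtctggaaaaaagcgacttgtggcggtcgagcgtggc
CDC6: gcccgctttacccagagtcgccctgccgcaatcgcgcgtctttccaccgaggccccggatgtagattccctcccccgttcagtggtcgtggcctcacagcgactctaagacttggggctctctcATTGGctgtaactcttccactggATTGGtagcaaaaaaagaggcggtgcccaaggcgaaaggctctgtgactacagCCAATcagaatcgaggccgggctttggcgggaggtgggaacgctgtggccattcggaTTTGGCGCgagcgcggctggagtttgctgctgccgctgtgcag
PCNA: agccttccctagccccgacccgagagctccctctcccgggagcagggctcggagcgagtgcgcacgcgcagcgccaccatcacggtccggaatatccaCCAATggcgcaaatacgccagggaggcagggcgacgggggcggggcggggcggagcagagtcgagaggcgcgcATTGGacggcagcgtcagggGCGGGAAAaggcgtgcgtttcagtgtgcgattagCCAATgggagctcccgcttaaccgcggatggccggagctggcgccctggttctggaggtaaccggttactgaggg
MKI67: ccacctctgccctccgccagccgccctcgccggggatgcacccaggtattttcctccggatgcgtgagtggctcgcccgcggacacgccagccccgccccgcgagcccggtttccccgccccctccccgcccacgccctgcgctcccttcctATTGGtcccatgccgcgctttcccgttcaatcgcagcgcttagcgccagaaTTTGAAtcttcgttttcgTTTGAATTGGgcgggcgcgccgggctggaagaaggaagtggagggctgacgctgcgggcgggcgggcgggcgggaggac
CDC20: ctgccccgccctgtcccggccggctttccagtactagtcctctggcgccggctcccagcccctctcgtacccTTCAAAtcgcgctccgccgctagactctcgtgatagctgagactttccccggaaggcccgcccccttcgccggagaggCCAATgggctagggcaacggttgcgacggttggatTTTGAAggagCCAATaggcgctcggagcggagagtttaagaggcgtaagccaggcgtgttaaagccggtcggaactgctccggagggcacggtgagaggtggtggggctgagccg
TOP2A: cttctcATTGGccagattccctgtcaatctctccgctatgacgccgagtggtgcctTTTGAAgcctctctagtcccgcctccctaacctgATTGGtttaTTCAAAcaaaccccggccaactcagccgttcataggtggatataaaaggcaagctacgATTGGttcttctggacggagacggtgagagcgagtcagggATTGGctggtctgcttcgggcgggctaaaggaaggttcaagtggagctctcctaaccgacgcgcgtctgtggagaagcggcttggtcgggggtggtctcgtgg
The MCM6 window lies on the reverse strand at chr2:135876394-135876693, CDC6 on the forward strand at chr17:40287629-40287928 and PCNA on the reverse strand at chr20:5126573-5126872. The MKI67 window lies on the reverse strand at chr10:128126374-128126673, CDC20 on the forward strand at chr1:43358731-43359030 and TOP2A on the reverse strand at chr17:40417847-40418146.

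In the MCM6 window, E2F words on opposite strands overlapped at positions -152 and -148 from the start and again at -90 and -86. It also held a CHR word at -246. CDC6 had an E2F word just inside the transcribed part at position 7, and PCNA had one at -59, with the first transcribed base as 0. Another PCNA window, which is not shown, had no E2F word. MKI67 had CHR words at -47 and -29, the second of which shares 1 base with a CCAAT box at -24. CDC20 had CHR words at -178 and -65, with a CCAAT box following the latter at -55. Over the windows found, 12 of 17 S-phase genes (70.6%) had an E2F word, against 2 of 19 mitotic genes (10.5%) and 3.99% of all 27305 genes with a window. CHR words showed the opposite split, in 15 of 19 mitotic genes (78.9%), 2 of 17 S-phase genes (11.8%) and 19.5% of all genes. The CCAAT box did not separate the classes as clearly, being present in 64.7% of S-phase genes, 78.9% of mitotic genes and 39.7% of all genes. A match is a run of letters and was not tested for binding in these cells.

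**Figure D1:**
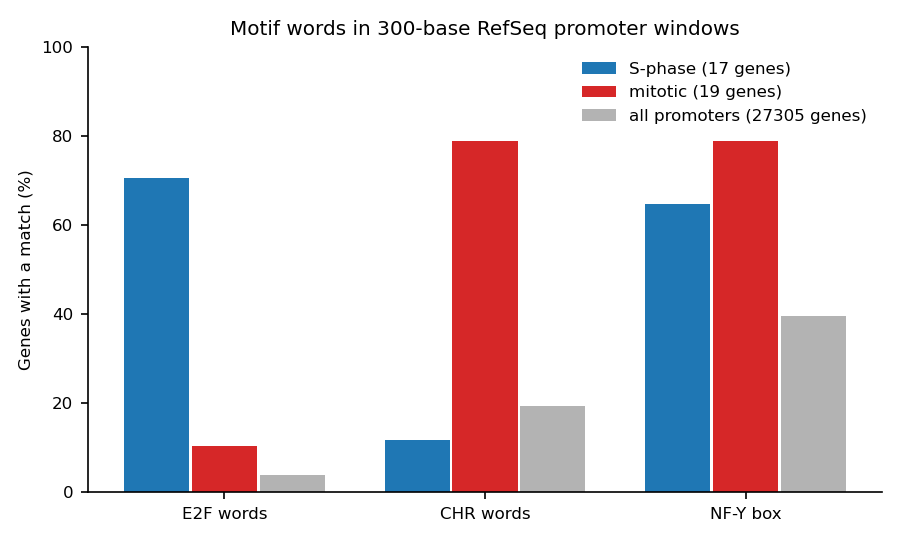
Percentage of genes (y axis) with at least 1 match to E2F words, CHR words or the NF-Y box (x axis) in their RefSeq promoter windows, for S-phase members (blue), mitotic members (red) and all genes with a window (grey). E2F words stand out in the S-phase genes (70.6%) and CHR words in the mitotic genes (78.9%).

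Many of the listed accessions had few or no counts. With 10 counts in any of the libraries as the minimum, 23 of the 44 members passed, namely 10 S-phase genes, 12 mitotic genes and MYBL2. The S-phase genes at 0 in every library were TYMS (P04818), RRM1 (P23921), TK1 (P04183), POLA1 (P09884), LIG1 (P18858) and CCNE1 (P24864), which are enzymes of nucleotide supply, a polymerase subunit, a DNA ligase and a G1/S cyclin. The mitotic genes at 0 were CDK1 (P06493), PLK1 (P53350), CCNB2 (O95067), KIF23 (Q02241) and NUSAP1 (Q9BXS6), which makes 11 members without a count. A further 9 had some counts but under 10 in each library, namely MCM7, RRM2, UHRF1, BIRC5, PRC1, BUB1, CENPE, AURKB and FOXM1. The checkpoint kinase BUB1 (O43683) had the most of these, with 6, 5 and 9 counts. The members that passed have a median of 3 protein-coding transcripts in GENCODE v44 (range 1 to 13), and the 21 others have a median of 5 (range 2 to 9). Of the members that passed, 10 have only 1 or 2 coding transcripts, against 1 of the 21 others. How the authors counted reads shared by several features is not given in the sources used here, and its part in the missing counts was not tested. The results therefore describe 23 accessions and not the whole set of genes.

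Set among all tested features, few members differed by a large amount. In bulk RNA, fewer cells of a type, or in a phase of the cycle, and less RNA per cell cannot be told apart. At 8 h against 0 h, 0 of 23 members had a log2 fold change past 1, beside 4.51% of the 9609 tested features that were higher and 6.02% that were lower. At 24 h against 0 h there were again 0 of 23, beside 6.19% higher and 5.58% lower. At 24 h against 8 h, 1 of 23 members was past it, beside 4.03% of all features higher and 1.97% lower. This was MCM4, whose 4 and 11 counts gave an interval that included 0 (-0.44 to 3.42). Such large differences were rarer where counts were high. Among the 618 features that reached 500 counts, 11 were past 1 upwards and 2 downwards at 8 h against 0 h. The numbers were 16 and 4 for 24 h against 0 h, and 5 and 0 for 24 h against 8 h. Since 11 of the 23 members are at this depth, having 0 past 1 does not by itself mark them as unusually stable.

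Small differences beyond counting error were more frequent. At 8 h against 0 h, 7 of 23 members had an interval above 0 and 0 had one below, beside 11.7% and 9.71% of all tested features. At 24 h against 0 h, 7 of 23 were above and 2 below, beside 13.0% and 12.6%, and with total counts 2 were above, MKI67 and CDC20, and 3 below, CCNA2, CCNB1 and MYBL2. From 8 h to 24 h, 0 of 23 were above and 9 below, beside 4.87% and 5.58%. Such intervals narrow with depth, so the 11 members with at least 500 counts in a library were also set beside the 618 features at that depth. There, 7 of 11 members were above 0 at 8 h and 0 below, against 43.2% and 15.9% of features. At 24 h against 0 h, 7 were above and 1 below, against 37.4% and 28.3%. From 8 h to 24 h, 0 of 11 were above 0 and 9 below, against 12.8% and 29.6%. The 8 mitotic genes at this depth had a median of 0.33 on the log2 scale at 8 h, where all 618 features had 0.10, and one of -0.21 from 8 h to 24 h, where all had -0.06. The medians of all features at this depth thus had the same sign as those of the mitotic genes and were smaller, and the part of this shift in the members' values was not tested.

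**Figure D2:**
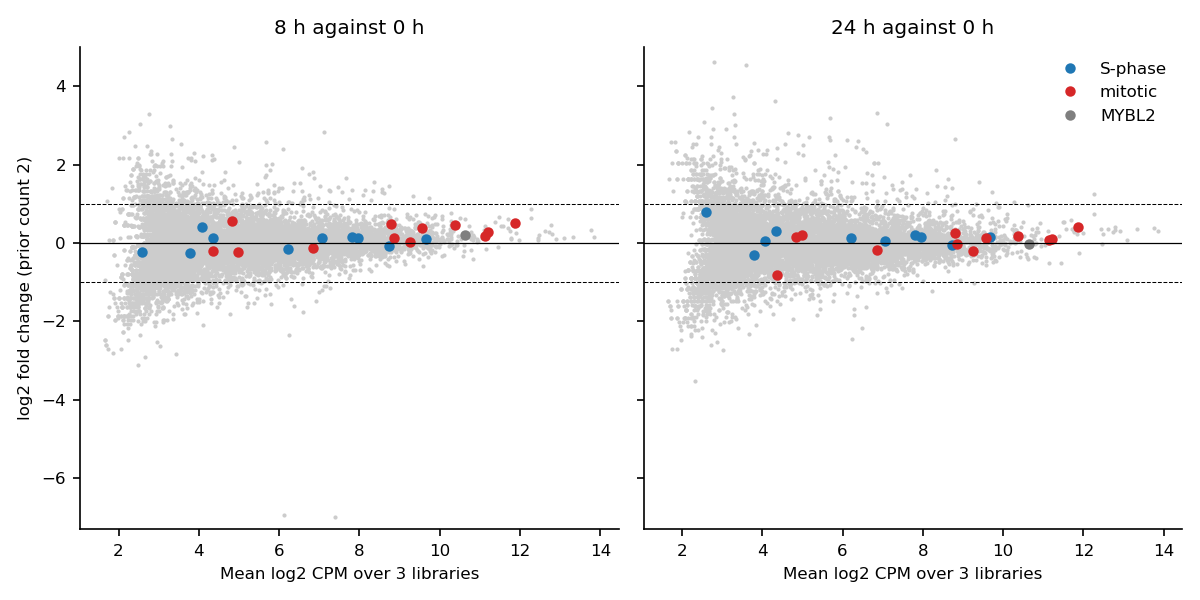
log2 fold change (y axis, prior count of 2) against mean log2 CPM (x axis) for the 9609 tested features (light grey) at 8 h and 24 h against 0 h, with S-phase members in blue, mitotic members in red and MYBL2 in dark grey. Dashed lines mark a log2 fold change of 1 in each direction, and all 23 members lie between them.

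**Figure D3:**
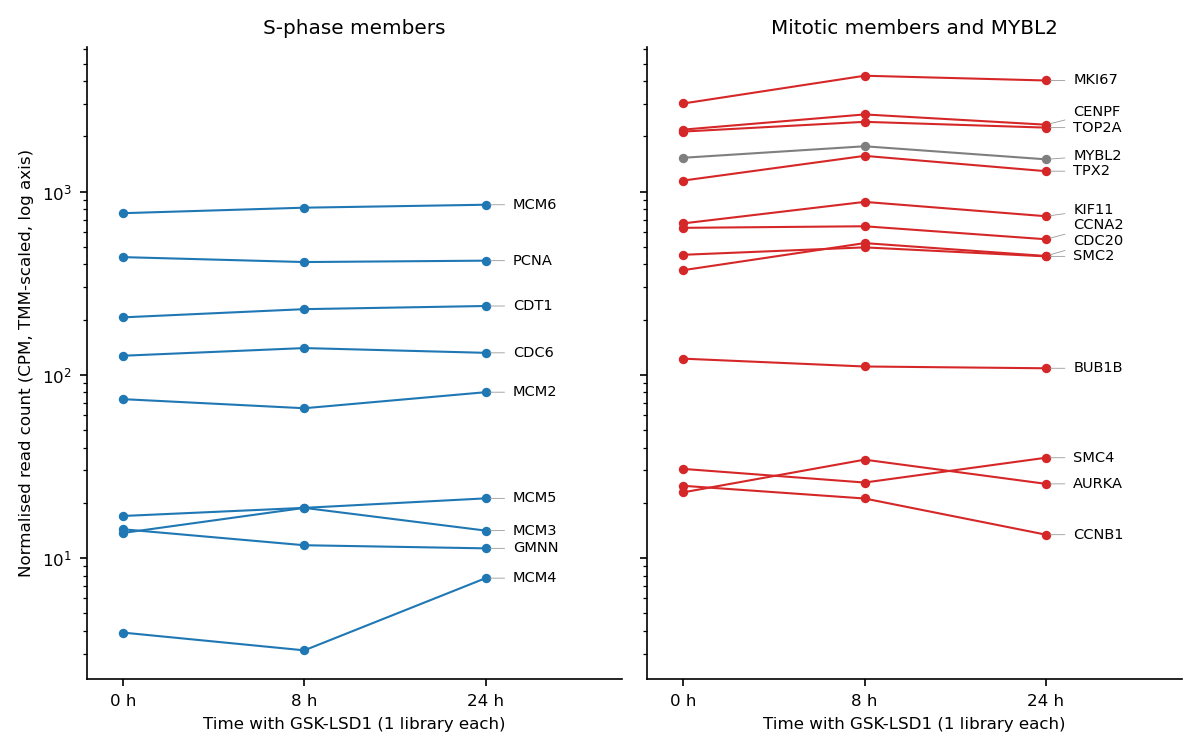
Normalised read counts (CPM on a log axis) at 0 h, 8 h and 24 h for 22 of the 23 members with at least 10 counts in a library, 1 line per gene and 1 library per point, with S-phase genes in blue, mitotic genes in red and MYBL2 in grey. Most lines are nearly flat, the 6 highest red lines have their highest point at 8 h, and CCNB1 is at 13.4 CPM at 24 h.

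The S-phase genes, of which 10 of 20 passed the minimum, stayed close to their untreated level in sum. Their counts summed to 2903 before treatment, 2524 at 8 h and 2884 at 24 h, which is 0.197%, 0.193% and 0.200% of all counts. The summed level was 1.04-fold that of 0 h at 8 h (0.989 to 1.10) and 1.07-fold at 24 h (1.02 to 1.13). With libraries scaled by their total counts, the value at 24 h was 0.02 on the log2 scale (-0.05 to 0.10). MCM6 alone held 40.3% of the class at 0 h, and without it the log2 ratio at 24 h was 0.07 under TMM (-0.03 to 0.17). The small difference at 24 h thus depended on the scaling. Without MCM6 the value stayed within the interval of the whole class, 0.03 to 0.18 on the log2 scale. Its own interval, from fewer counts, included 0. The median log2 fold change of the 10 genes that passed was 0.11 at 8 h and 0.13 at 24 h, beside -0.01 at both times for all 9609 tested features.

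Among the helicase subunits, MCM6 (Q14566, locus chr2:135839626-135876443 on the reverse strand in GENCODE v44, GRCh38, as for the loci below) had the most counts, with 1171 before treatment, 1046 at 8 h and 1204 at 24 h, or 762, 817 and 848 CPM. Its log2 ratio was 0.10 at 8 h (-0.02 to 0.22) and 0.15 at 24 h (0.04 to 0.27). MCM6 was the only S-phase gene with an interval wholly on one side of 0 in any comparison under TMM, and with total counts that interval included 0. MCM2 (P49736) had 113, 84 and 114 counts, and its log2 ratio at 24 h was 0.13 (-0.26 to 0.51). MCM3 (P25205) had 21, 24 and 20 counts and MCM5 (P33992) had 26, 24 and 30, which gave intervals at 24 h of -0.92 to 0.998 and of -0.49 to 1.14. MCM4 (P33991), with 6, 4 and 11 counts, passed the minimum through the 24 h library alone. MCM7 (P33993) had at most 2 counts in a library.

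PCNA (P12004, chr20:5114953-5126626, reverse strand) had 674 counts before treatment, 528 at 8 h and 596 at 24 h, or 439, 412 and 420 CPM. Its log2 ratio was -0.09 at 8 h (-0.26 to 0.08) and -0.06 at 24 h (-0.23 to 0.10), both within the counting error. With total counts the value at 8 h was -0.18, with an interval below 0 (-0.35 to -0.015). Of the licensing factors, CDT1 (Q9H211) had 316, 292 and 337 counts, and its log2 ratio at 24 h was 0.21 (-0.02 to 0.43). CDC6 (Q99741), which loads the helicase together with CDT1, had 195, 179 and 187 counts and a ratio of 0.05 (-0.24 to 0.35). GMNN (O75496), the inhibitor of CDT1, had only 22, 15 and 16 counts, and its interval at 24 h ran from -1.37 to 0.65. For PCNA, MCM6, CDT1 and CDC6, no interval at 24 h reached a log2 ratio of 1 in either direction.

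The mitotic genes were on balance higher at 8 h and partly returned by 24 h. Of the 12 that passed, 6 had an interval above 0 and 0 below at 8 h, beside 11.7% and 9.71% of all tested features. At 24 h 6 were above and 2 below, beside 13.0% and 12.6%. From 8 h to 24 h, 0 were above and 8 below, beside 4.87% and 5.58%. For 8 of the 12 the fitting comparison is with features of at least 500 counts, where 43.2% were above and 15.9% below at 8 h, and 37.4% and 28.3% at 24 h. Between 8 h and 24 h, 12.8% of those features were above and 29.6% below. The counts of the mitotic genes summed to 16622 before treatment, 17476 at 8 h and 17400 at 24 h, which is 1.13%, 1.33% and 1.21% of all counts. The summed level was 1.26-fold that of 0 h at 8 h (1.23 to 1.29), 1.13-fold at 24 h (1.11 to 1.16), and at 24 h it was 0.898-fold that of 8 h (0.879 to 0.917). MKI67 alone held 28.0% of the class at 0 h and 33.0% at 24 h. Without it, the log2 ratio of the sum went from 0.34 to 0.26 at 8 h and from 0.18 to 0.08 at 24 h. With total counts as library sizes the 2 log2 ratios were 0.24 and 0.10. The library with this peak is also the one low in mitochondrial ribosomal RNA. That RNA was at most 0.161% of the counts of a library, so leaving it out of the total counts could hardly change the values. They were then 0.241 and 0.096, which does not show whether the libraries were otherwise alike. Whether the libraries differed in ways that moved with the mitotic genes was not tested. The median log2 fold change of the 12 genes that passed was 0.23 at 8 h, 0.11 at 24 h and -0.21 from 8 h to 24 h.

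MKI67 (P46013, chr10:128096659-128126423, reverse strand) encodes Ki-67, the surfactant-like coat protein of mitotic chromosomes and a common marker of dividing cells. It had 4652 counts before treatment, 5497 at 8 h and 5743 at 24 h, or 3028, 4293 and 4044 CPM. Both treated libraries lay above the untreated one, with log2 ratios of 0.50 at 8 h (0.45 to 0.56) and 0.42 at 24 h (0.36 to 0.47). TOP2A (P11388), the topoisomerase that untangles sister chromatids, had 3268, 3079 and 3175 counts, or 2127, 2405 and 2235 CPM. Its log2 ratio of 0.18 at 8 h (0.11 to 0.25) was followed by 0.07 at 24 h (0.0007 to 0.14), and the latter became -0.01 (-0.08 to 0.06) with total counts. The condensin subunit SMC2 (O95347) had 694, 635 and 629 counts and intervals that included 0 against 0 h at both times, as did those of its partner SMC4 (Q9NTJ3) with 47, 33 and 50 counts.

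The spindle genes shared a peak at 8 h. TPX2 (Q9ULW0), the activator of Aurora A on spindle microtubules, had 1765 counts before treatment, 2007 at 8 h and 1836 at 24 h, or 1149, 1567 and 1293 CPM. Its log2 ratio was 0.45 at 8 h (0.36 to 0.54) and 0.17 at 24 h (0.08 to 0.27). KIF11 (P52732), the motor that separates the spindle poles, had 1030, 1125 and 1042 counts, or 670, 879 and 734 CPM, and log2 ratios of 0.39 (0.27 to 0.51) and 0.13 (0.0044 to 0.26). CENPF (P49454), a large protein of the outer kinetochore, had 3349, 3379 and 3294 counts, or 2180, 2639 and 2319 CPM, and log2 ratios of 0.28 (0.21 to 0.35) and 0.09 (0.02 to 0.16). With total counts, the 24 h intervals of TPX2, KIF11 and CENPF included 0, while those at 8 h stayed above it. From 8 h to 24 h all 3 were lower, with log2 ratios of -0.28 for TPX2, -0.26 for KIF11 and -0.19 for CENPF, and these intervals lay below 0. CENPE (Q02224), KIF23 (Q02241), PRC1 (O43663) and NUSAP1 (Q9BXS6) had at most 2 counts in a library and could not be followed.

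CDC20 (Q12834), the activator of the anaphase-promoting complex, had 572 counts before treatment, 670 at 8 h and 632 at 24 h, or 372, 523 and 445 CPM. It was higher in both treated libraries, with log2 ratios of 0.49 at 8 h (0.33 to 0.65) and 0.26 at 24 h (0.09 to 0.42), and its intervals stayed above 0 with total counts. The cyclins differed from this pattern. CCNA2 (P20248), which partners CDK2 in S phase and CDK1 in G2, had 974, 828 and 780 counts, or 634, 647 and 549 CPM. It was level at 8 h, with a log2 ratio of 0.03 (-0.11 to 0.16), and lower at 24 h, with one of -0.21 (-0.34 to -0.07). CCNB1 (P14635), the cyclin of mitotic entry, had 38, 27 and 19 counts, and its log2 ratio at 24 h was -0.89 (-1.76 to -0.06), and CCNB2 (O95067) had no counts. For the kinases only AURKA (O14965), with 35, 44 and 36 counts, and BUB1B (O60566), with 188, 142 and 154, could be followed, and their intervals included 0 at both times.

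MYBL2 (P10244, chr20:43667019-43716495, forward strand) encodes B-MYB, which acts with the MuvB core on CHR promoters. It had 2351, 2264 and 2131 counts, or 1530, 1768 and 1500 CPM, and followed the spindle genes in being highest at 8 h. Its log2 ratio was 0.21 at 8 h (0.12 to 0.29) and -0.03 at 24 h (-0.11 to 0.06), and the latter became -0.11 with an interval below 0 (-0.20 to -0.025) with total counts. FOXM1 (Q08050), its partner on these promoters, had at most 2 counts in a library.

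**Figure D4:**
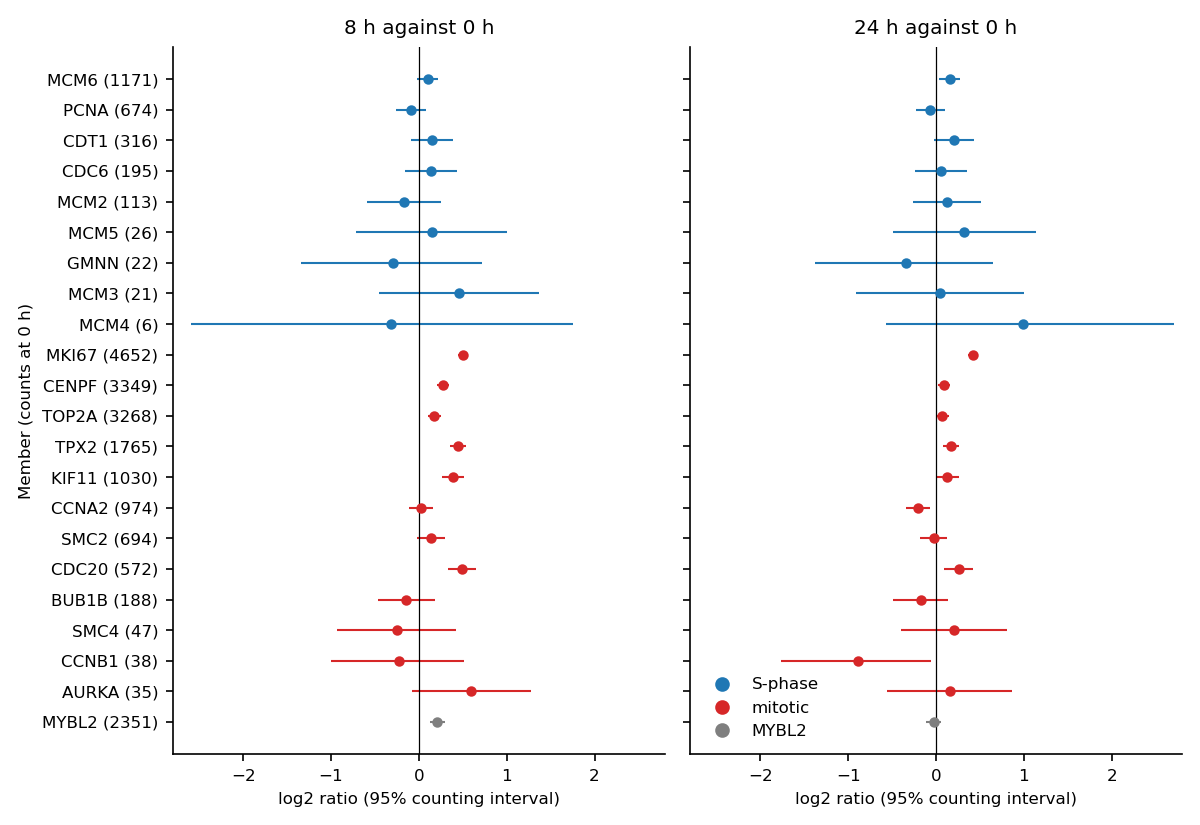
log2 ratio of 22 of the 23 members that passed the minimum (y axis, labelled with the untreated count) for both treated libraries relative to 0 h, with TMM scaling and exact 95% counting intervals as bars. S-phase genes (blue) sit around 0 with intervals that mostly include it, while 6 mitotic genes (red) have intervals above 0 at 8 h, led by MKI67 at 0.50, and CCNA2 and CCNB1 lie below 0 at 24 h.

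The balance between the classes does not depend on library size. There were 5.73 mitotic counts for each S-phase count before treatment, 6.92 at 8 h and 6.03 at 24 h. Relative to 0 h, this ratio was 1.21-fold at 8 h (exact 95% interval 1.14 to 1.28) and 1.05-fold at 24 h (0.996 to 1.11). From 8 h to 24 h it was 0.871-fold (0.822 to 0.923). Without MKI67 and MCM6, the most counted gene of each class, it was 1.17-fold at 8 h (1.09 to 1.26) and 1.004-fold at 24 h (0.934 to 1.08). The shift towards mitotic counts at 8 h was thus larger than the counting error with and without these genes, and at 24 h it was not. The classes also differ in depth, with 8 of 12 tested mitotic genes at 500 counts or more and 2 of 10 S-phase genes. At 8 h, all features at that depth had a median log2 fold change of 0.10, and all tested features had -0.01. The part of this difference in the ratio was not tested.

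Some genes also have features under Ensembl transcript identifiers, mostly retained-intron transcripts and transcripts without a defined coding sequence. GENCODE v44 lists 427 transcripts of the 44 genes, 162 of which have a feature of their own, and only 5 had 10 or more counts in any library. Together they held 262 counts before treatment, 214 at 8 h and 197 at 24 h. Their log2 ratio was -0.03 at 8 h (-0.30 to 0.24) and -0.30 at 24 h (-0.57 to -0.03). Other UniProt entries of these genes were not looked up. Some genes without usable counts under the listed entry had counts under these transcripts. CDK1 had 20, 11 and 12, RRM2 had 23, 19 and 20, and TYMS had 10, 5 and 6. For others, such as CCNB2 and TK1, the transcripts had 0 counts as well. These transcripts overlap the coding ones, and their counts do not stand for the coding messages.

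Other genes of the same processes were taken from lists by accession. Of 26 further replication genes, 15 passed the minimum, and at 8 h 1 had an interval above 0 and 4 had one below, where 11.7% and 9.71% of all tested features did. At 24 h 0 were above and 4 below, beside 13.0% and 12.6%, and 5 were below with total counts. CCNE2 (O96020), the second E-type cyclin, had 114, 62 and 49 counts, and its log2 ratio was -1.10 (-1.62 to -0.61). CHEK1 (O14757), the checkpoint kinase that guards stalled forks, had 106, 60 and 60 counts, with a ratio of -0.71 (-1.19 to -0.24). RFC3 (P40938), a subunit of the clamp loader, had 338, 199 and 228 counts, with a ratio of -0.45 (-0.70 to -0.21). All 3 were already lower at 8 h. Named after their values were seen, the origin recognition subunit ORC1 (Q13415), with 628, 452 and 503 counts, was the other one below 0 at both times, and GINS1 (Q14691), of the replicative helicase, was the one above 0 at 8 h, with 315, 309 and 304 counts. The interval of GINS1 at 8 h only just left out 0 (0.004 to 0.47), and with total counts 0 of the 15 were above 0 at 8 h. The median of the list at 24 h was -0.15 on the log2 scale, or -0.23 with total counts, and that of the S-phase members was 0.13. Summed over the 15 genes, the level was 0.90-fold that of 0 h at 8 h (0.85 to 0.96) and 0.88-fold at 24 h (0.83 to 0.93). The near-level sum of the S-phase members therefore does not extend to these genes.

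Of 39 further mitosis genes, 26 passed, and 10 had an interval above 0 and 2 below at 8 h, beside 11.7% and 9.71% of all tested features. At 24 h 5 were above and 4 below, beside 13.0% and 12.6%. With total counts the numbers were 9 and 2 at 8 h and 4 and 7 at 24 h. CEP55 (Q53EZ4), which acts in abscission, had 194, 262 and 264 counts, and its log2 ratio at 24 h was 0.56 (0.28 to 0.83). KIF20A (O95235), a kinesin of the central spindle, had 181, 230 and 227 counts and a ratio of 0.44 (0.15 to 0.73), and the condensin subunit NCAPD2 (Q15021) had 74, 71 and 113 counts and a ratio of 0.72 (0.29 to 1.17). In the other direction, the checkpoint protein MAD2L1 (Q13257) had 99, 68 and 54 counts and a ratio of -0.76 (-1.27 to -0.27). BUB3 (O43684), of the same checkpoint, had 331, 214 and 250 counts and a ratio of -0.29 (-0.53 to -0.05), and RACGAP1 (Q9H0H5), needed for cytokinesis, had 158, 143 and 114 counts and a ratio of -0.36 (-0.72 to -0.0010). The others off 0 at 24 h, named after their values were seen, were KIF4A (O95239) and INCENP (Q9NQS7) above and the kinase NEK2 (P51955) below, with 37, 16 and 17 counts. The median of this list was 0.14 at 8 h and 0.02 at 24 h, and with total counts it was 0.05 and -0.06, so that its direction at 24 h depended on the scaling.

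Among 16 genes that control G1, 8 passed, with 2 intervals above 0 and 3 below at 8 h, beside 11.7% and 9.71% of all tested features, and 1 above and 2 below at 24 h, beside 13.0% and 12.6%. CDK6 (Q00534), which phosphorylates RB1 with the D-type cyclins, had 4967 counts before treatment, 3835 at 8 h and 3224 at 24 h, and its log2 ratio was -0.11 at 8 h (-0.17 to -0.05) and -0.51 at 24 h (-0.57 to -0.45). CDK2 (P24941), the partner of the E-type cyclins, had 60, 19 and 22 counts and a ratio of -1.33 at 24 h (-2.11 to -0.61). BTG2 (P78543), an antiproliferative gene, had 66, 83 and 111 counts and a ratio of 0.86 (0.41 to 1.33). At 8 h, named after their values were seen, the inhibitor CDKN1A (P38936) was also above 0, with 159, 190 and 182 counts, and CCND2 (P30279), a D-type cyclin, was also below it, with 19, 4 and 9. CCND2 passed the minimum through the 0 h library alone, where it was highest, so the filter itself favoured a lower value after treatment.

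The replication-dependent histones, whose messages are made in S phase and lack a poly(A) tail, were higher at both times. Of 19 histone accessions, 16 passed and all 16 had an interval above 0 at 8 h and at 24 h, also with total counts. Of the 16, 15 reached 500 counts in a library, and 43.2% of all features at that depth were above 0 at 8 h and 37.4% at 24 h. The medians were 0.57 at 8 h and 0.54 at 24 h on the log2 scale. Histone H4 (P62805) had 5472, 7156 and 8496 counts, and its log2 ratio at 24 h was 0.75 (0.70 to 0.80), and H3.2 (Q71DI3) had 274, 398 and 420 counts and a ratio of 0.73 (0.51 to 0.95). The histone H2B type 1-B (P33778) had 333, 767 and 821 counts and a ratio of 1.42 (1.23 to 1.60). Several of these accessions stand for proteins encoded by more than 1 near-identical gene, so the counts of single histone genes are uncertain. For comparison, the myeloid genes LYZ and SPI1 (P17947), the latter with 69, 87 and 102 counts, had log2 ratios of 1.55 (1.42 to 1.68) and 0.68 (0.22 to 1.14) at 24 h. The other myeloid markers that passed did not differ beyond counting error. PTPRC had a ratio of -0.13 (-0.30 to 0.04) and MPO one of 0.20 (-0.84 to 1.24).

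**Figure D5:**
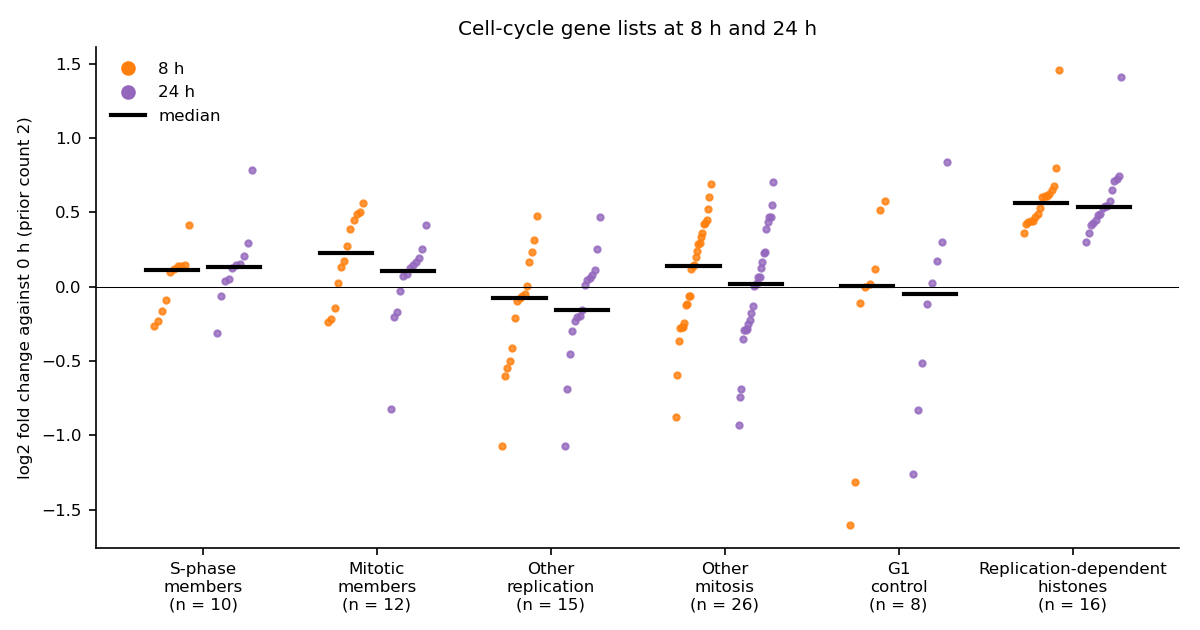
log2 fold change (y axis, prior count of 2) against 0 h at 8 h (orange) and 24 h (purple) for the genes of each list that passed the minimum, 1 point per accession, with the median as a black bar. The histone points all lie above 0 with medians of 0.57 and 0.54, whereas the S-phase members and the other replication genes spread to both sides of 0.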

How the data were processed

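RNA-seq libraries of THP-1 cells at 0 h, 8 h and 24 h of GSK-LSD1 were grouped by their time labels, 1 per time point. Per the labels and the methods of the study, the authors used fastp, mapped reads to hg38 with STAR through Seq2science and deposited whole-number counts per feature. The counting tool, annotation, strand setting and treatment of shared reads are not given in the sources used here. The deposited file pairs no accession with a gene: symbols here were written from general knowledge of the UniProt entries. The members and lists were chosen with earlier results of these data known. The values of 1 member, which stays in the sums and counts, are not reported here. The rule for naming other genes was up to 3 per list and direction, with the largest log2 fold change at 24 h taken from accessions that reached 50 counts in some library and whose interval leaves out 0.

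Library sizes were scaled with TMM (edgeR 4.0.16, R 4.3.3) over features that reached 10 counts in some library. Log2 fold changes used log2 CPM with a prior count of 2, and log2 ratios used counts without one, with exact Clopper-Pearson 95% intervals conditional on the sum of both counts. Shares of class counts were compared by conditional odds ratios with exact intervals. Intervals ignore the error of the scaling. The scripts (Python 3.11.15, scipy 1.17.1, pandas 2.3.3, numpy 2.4.6) were tested on simulated data. Alternatives were DESeq2 1.42.0 size factors, total counts, other prior counts, minimums and thresholds, and sums without the most counted gene. The minimum of 500 counts was chosen after seeing the data. Transcript names and loci came from GENCODE v44, promoters from RefSeq (GRCh38.p14).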

Additional observations from a re-analysis of the deposited data

How the results depend on the processing

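Each time point has 1 library, so leaving out a replicate was not possible. No paired analysis was possible because each group has 1 sample. Total counts in place of TMM lowered every log2 ratio by 0.09 at 8 h and by 0.08 at 24 h against 0 h, by construction. The summed S-phase log2 ratios then became -0.031 at 8 h and 0.022 at 24 h, and the summed mitotic ones 0.24 and 0.10. Total counts without mitochondrial ribosomal RNA gave -0.033 and 0.021 for S phase, and 0.241 and 0.096 for mitosis. The small share of this RNA allowed hardly any change. Members with an interval above 0 at 24 h against 0 h fell from 7 to 2, and 1 member, PCNA, had one below 0 at 8 h. TOP2A at 24 h against 0 h changed sign to -0.010. Without MKI67 the summed mitotic log2 ratios were 0.26 at 8 h and 0.075 at 24 h relative to 0 h, and -0.19 between 8 h and 24 h.

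A threshold of 0.5 put 2 members higher at 8 h and 1 higher and 1 lower at 24 h relative to 0 h, and 1 lower between 8 h and 24 h. With no filter on low counts, 2 were higher at 8 h and 1 was lower at 24 h relative to 0 h, and 2 were lower between 8 h and 24 h. A prior count of 5 and a minimum of 50 counts each left 0 members higher at 24 h against 8 h. The S-phase and mitotic medians kept their sign under each alternative run for them, and the mitotic to S-phase ratios stayed within their intervals without MKI67 and MCM6 and with MYBL2 and FOXM1 counted as mitotic. DESeq2 size factors moved none of the recomputed sums and ratios out of their intervals. The minimum of 500 counts, the total counts for the other lists and those without mitochondrial ribosomal RNA were chosen after seeing the data. Depth limits the members under 50 counts: AURKA, with a log2 ratio of 0.59 at 8 h, had an interval that included 0.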
